A study of Mus musculus with 5 samples.

Results

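Vitamin A metabolism was examined in mouse gastric organoids through a list of 9 genes that take up, oxidise, bind, break down or respond to retinoids: Stra6, Rdh10, Dhrs3, Aldh1a1, Aldh1a2, Aldh1a3, Crabp2, Cyp26b1 and Rarb. Probes were assigned to these genes by the transcript accession printed beside each probe, and 8 of the 9 genes had at least 1 matched probe, out of 17583 genes tested in all. Crabp2, which encodes a retinoic acid carrier, was not analysed here. The genes were chosen by their log2 levels and differences from the control on these same 5 arrays, so the levels and differences of the 8 genes are given as a description, without a test.

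Retinol circulates bound to a plasma carrier, enters some cells through the receptor STRA6 and is stored as retinyl esters. Inside cells it is oxidised to retinal, mainly by RDH10, and DHRS3 reduces retinal back to retinol. The retinaldehyde dehydrogenases ALDH1A1, ALDH1A2 and ALDH1A3 oxidise retinal irreversibly to retinoic acid, the ligand of the nuclear receptors RARα, RARβ and RARγ, which bind DNA together with an RXR partner. Enzymes of the CYP26 family hydroxylate retinoic acid for removal, and Cyp26a1, Cyp26b1, Dhrs3, Stra6 and Rarb are known to be induced by retinoic acid in many cells. Receptor pairs bind direct repeats of a short hexamer.

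Promoter sequences of 3 genes are printed so that a classic target with such hexamers (Rarb) can be set beside the gene that breaks the ligand down (Cyp26b1), whose window holds none, and the gene that was lower in every tumour-derived sample (Aldh1a1). RefSeq windows of assembly GRCm38.p6, running from 250 bases before to 50 bases after an annotated transcription start, were held for 6 of the 9 genes, 12 windows in all, some of which overlap. Each is written 5′ to 3′ on the gene's strand, and capitals mark, on either strand, the hexamer AGGTCA or one of its variants, namely AGTTCA (found in 14.0% of all windows), GGGTCA (found in 13.7%) and GGTTCA (found in 10.4%), against 16.3% for the first.
Rarb, chr14:16575427-16575726, minus strand: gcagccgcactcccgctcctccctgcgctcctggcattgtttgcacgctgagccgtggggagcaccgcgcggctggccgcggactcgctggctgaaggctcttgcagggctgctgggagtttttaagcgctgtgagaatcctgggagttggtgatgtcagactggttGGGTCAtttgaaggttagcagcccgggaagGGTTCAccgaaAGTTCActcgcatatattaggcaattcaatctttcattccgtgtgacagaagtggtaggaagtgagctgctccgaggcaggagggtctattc
Cyp26b1, chr6:84593761-84594060, minus strand: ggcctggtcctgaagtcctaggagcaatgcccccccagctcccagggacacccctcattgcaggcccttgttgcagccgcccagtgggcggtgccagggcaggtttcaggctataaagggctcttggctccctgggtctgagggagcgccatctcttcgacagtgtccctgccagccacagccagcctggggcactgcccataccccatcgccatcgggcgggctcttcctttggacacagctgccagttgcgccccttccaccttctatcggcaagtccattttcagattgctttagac
Aldh1a1, start 2 of 2, chr19:20601718-20602017, plus strand: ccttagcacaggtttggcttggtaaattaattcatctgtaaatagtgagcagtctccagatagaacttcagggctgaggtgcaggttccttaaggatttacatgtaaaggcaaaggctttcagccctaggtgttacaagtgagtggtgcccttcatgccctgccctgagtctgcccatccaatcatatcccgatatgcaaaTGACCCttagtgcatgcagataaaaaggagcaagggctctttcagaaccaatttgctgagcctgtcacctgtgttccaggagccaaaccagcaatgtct
The Rarb window held 3 hexamers on the gene strand. The downstream pair of them is a direct repeat, GGTTCAccgaaAGTTCA, with 5 bases between its hexamers, from −53 to −37 relative to the start. Of 32851 windows of this length, 32 (0.0974%) held a repeat of these hexamers spaced by 5 on either strand. The only other gene on the lists used here with this repeat was Cyp26a1, which had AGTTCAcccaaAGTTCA from −32 to −16 on the opposite strand. Repeats spaced by 1 or 2 bases, found in 0.222% and 0.268% of all windows, were in none of the 12 windows. Any single hexamer was found in 43.7% of all windows and in 3 of the 12 windows here, 1 each for Rarb, Aldh1a1 and Stra6. A match describes letters in a short window and shows no binding, and windows without a match say nothing of sites elsewhere.

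**Figure D1:**
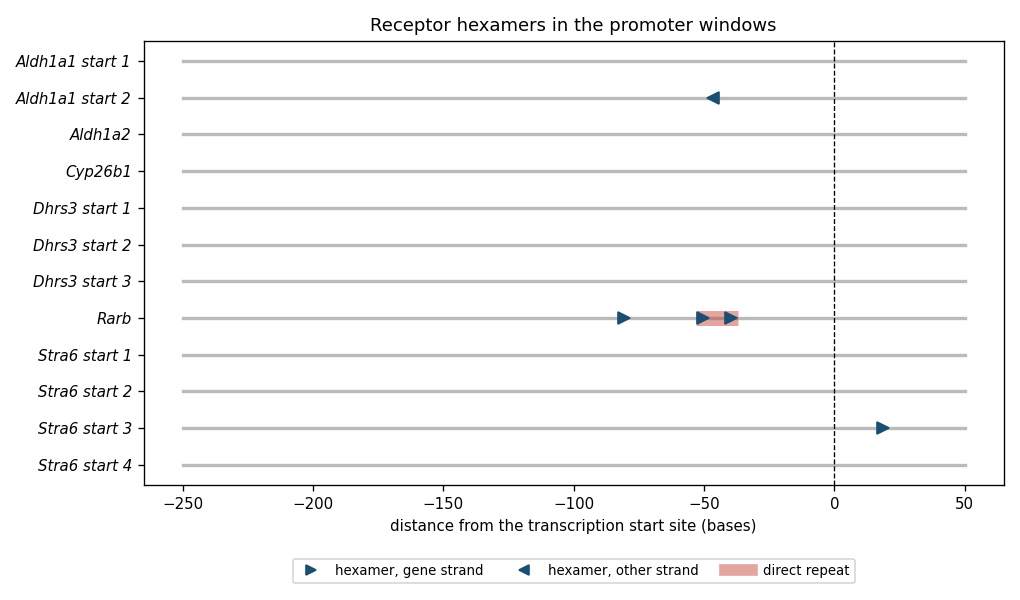
Position of the receptor hexamers (triangles) in the 12 promoter windows of 6 genes, plotted as distance in bases from the transcription start (dashed line). The direct repeat (red bar) lies at −53 to −37 in Rarb, and the Aldh1a1 and Stra6 windows with a match hold 1 hexamer each.

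Each of 5 samples was hybridised to its own Agilent array in a single colour. The control sample was a line of gastric organoids (clusters of stomach epithelium grown in gel) from Trp53flox/flox mice that carried the pLKO.1 vector with a luciferase hairpin, shLuc. It was harvested before subcutaneous inoculation, and its labels name no Trp53 loss. The other 4 samples were organoids re-grown from subcutaneous tumours with Trp53 loss: 2 with a hairpin against Cdh1 (shCdh1 #1 and #2), 1 with Apc580D and 1 with Pik3caH1047R. The shCdh1 pair was treated as 1 group (n = 2) and every other group is a single sample. A difference from the control can reflect Trp53 loss, the added lesion or growth in a mouse. For Apc and Pik3ca it can also reflect the slide, and for Pik3ca the sex of the cells, as given below. These cannot be told apart. The labels do not say whether the tumours came from the control line or how many animals were used, so p-values measure only the spread between these samples. With the 4 tumour-derived samples as 1 group, that spread includes differences in lesion, hairpin and slide. In the shCdh1 comparisons it is the gap between the hairpins, which may be technical. The lone control adds none. The additions to the culture medium named in the labels include no retinoid.

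Signal stood well above background at 36661 to 38710 of the 59305 spots on each array, and no spot was saturated. Levels are log2 signal relative to the array's 75th percentile. The control and both hairpins lay on 1 slide, and Apc and Pik3ca on another. Against the control, Cdh1 was lower by 20.0-fold in hairpin 1 and by 17.6-fold in hairpin 2, and Trp53 was 52.3-fold to 105-fold lower in the 4 tumour-derived samples. The Pik3ca library goes against its label: it is labelled female, yet Xist was not well above background there (−8.14, against −0.90 to −0.69 on the other arrays) and the Y-linked Eif2s3y was at 1.35. Results are therefore also given without it. In the control Xist was well above background and Eif2s3y, Ddx3y, Kdm5d and Uty were not, whereas in Pik3ca these Y-linked genes were. The Pik3ca and control samples thus read as cells of different sex. Across all genes hairpins 1 and 2 differed by a median of 0.31 log2 units, and 13.2% of genes differed at least 2-fold between them. In these bulk samples fewer cells of a type and less RNA per cell cannot be told apart. All 8 genes had their main probe well above background on all 5 arrays.

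Of the 3 listed genes for retinol uptake and retinol-retinal conversion, Stra6 and Dhrs3 stayed within 2-fold over the 5 arrays and Rdh10 did not. Stra6, the retinol uptake receptor, had log2 levels of 1.24 in the control, 1.06 in hairpin 1, 1.37 in hairpin 2, 0.46 in Apc and 0.72 in Pik3ca. The control lay between the hairpins, and Apc (1.72-fold below the control) and Pik3ca (1.44-fold) lay below both of them. The step between Pik3ca and hairpin 1 was the one step in the order of levels that exceeded the gap between the hairpins (0.31). Rdh10, the enzyme that makes most retinal in embryos, was at 2.43 in the control, 2.69 in hairpin 1, 3.86 in hairpin 2, 4.03 in Apc and 2.59 in Pik3ca. All 4 tumour-derived samples lay above the control, but Pik3ca (1.12-fold) and hairpin 1 (1.19-fold) only slightly, against 2.69-fold in hairpin 2 and 3.02-fold in Apc. The hairpins were themselves 2.26-fold apart for Rdh10, and no step between neighbouring samples was wider than that. Dhrs3, which returns retinal to retinol, was at 4.25 in the control, 4.30 in hairpin 1, 4.13 in hairpin 2, 4.29 in Apc and 3.93 in Pik3ca. Its whole range was 1.29-fold, the narrowest of the 8 genes, with 2 samples above and 2 below the control. A second Dhrs3 probe, for another transcript accession, differed from the control by 0.37, −0.09, −0.20 and −0.64 in hairpin 1, hairpin 2, Apc and Pik3ca and was likewise lowest in Pik3ca.

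**Figure D2:**
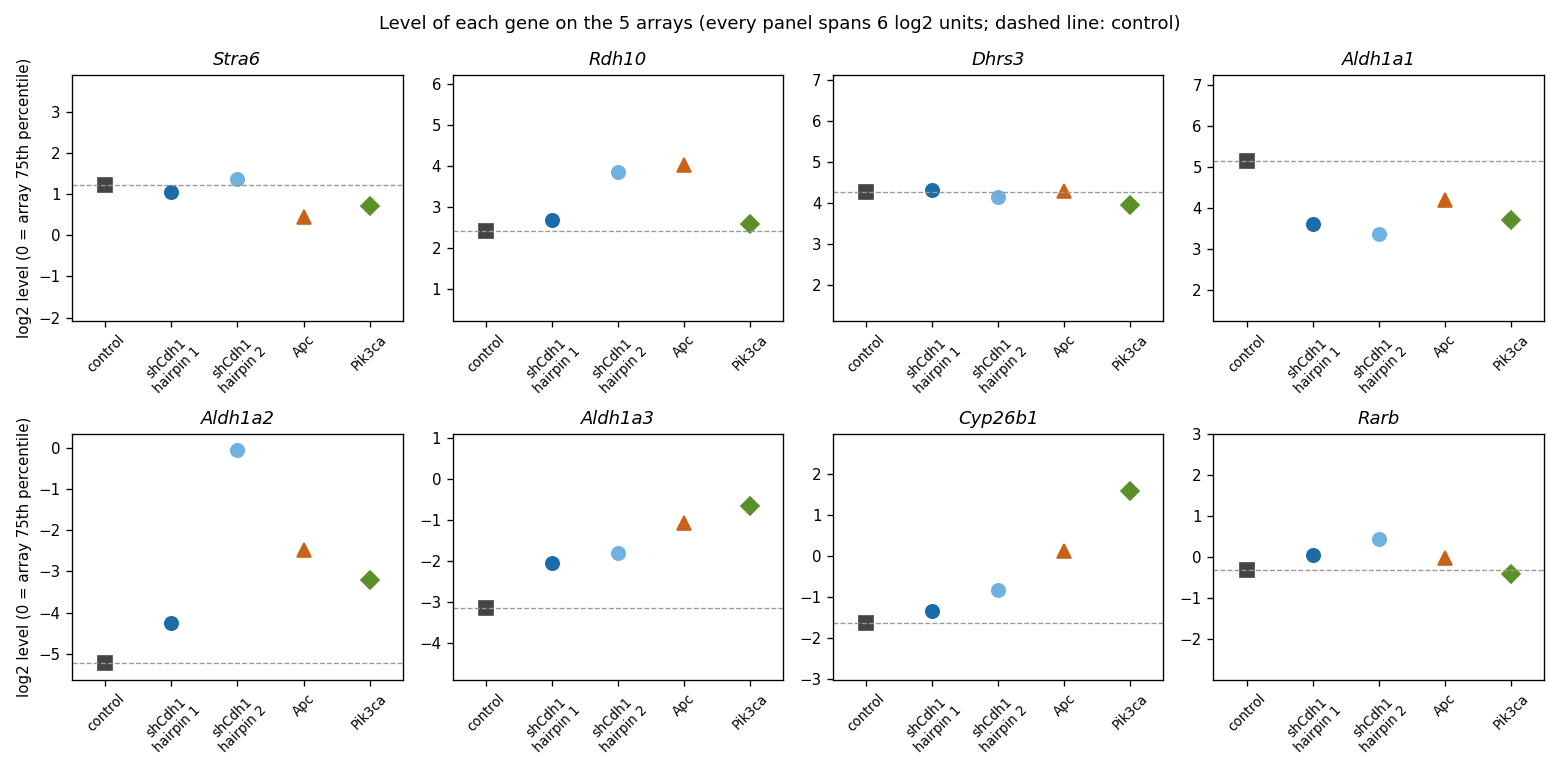
Log2 level (y axis, 0 is the array's 75th percentile) of the 8 genes on the 5 arrays, 1 point per array, in panels that each span 6 log2 units, with the control level dashed. Aldh1a1 lies below the control on all 4 tumour-derived arrays, Aldh1a2, Aldh1a3, Rdh10 and Cyp26b1 lie above it on all 4, and Dhrs3 stays within 1.29-fold.

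The 3 retinaldehyde dehydrogenases went in different directions. Aldh1a1, the form of this enzyme abundant in many adult epithelia, had levels of 5.13 in the control, 3.61 in hairpin 1, 3.35 in hairpin 2, 4.18 in Apc and 3.69 in Pik3ca. Every tumour-derived sample lay below the control, by 2.87-fold, 3.44-fold, 1.93-fold and 2.71-fold. The step from Apc up to the control was wider than the gap between the hairpins (0.26), as was that from Pik3ca to Apc, whereas Pik3ca and hairpin 1 differed by less than that gap. Aldh1a7, a close paralog of Aldh1a1 on its own probe, had levels of 5.18 in the control and 3.85, 2.91, 3.20 and 3.77 in hairpin 1, hairpin 2, Apc and Pik3ca, and was also lower in 4 of 4. The files give no probe sequence, so whether either probe also captures the other transcript was not tested.

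Aldh1a2, the main source of retinoic acid in mesoderm and mesothelium, was at −5.23 in the control, −4.25 in hairpin 1, −0.05 in hairpin 2, −2.48 in Apc and −3.20 in Pik3ca. All 4 tumour-derived samples lay above the control, by 1.98-fold, 36.4-fold, 6.75-fold and 4.10-fold. The control level was near the lowest signal well above background on that array (−6.07), which limits what these folds show. The hairpins were 18.4-fold apart, more than any step between neighbouring samples, and they were the lowest and the highest of the 4 tumour-derived samples (shCdh1 mean −2.15 ± 2.97, SD, n = 2). The mean difference of the 4 from the control was 2.74, and 1.93 without hairpin 2. With normexp background correction on the spot medians, whose offset of 50 narrows the differences of dim spots, it was 1.53. Aldh1a3, a form found in embryonic epithelia and in several epithelial tumours, was at −3.13 in the control, −2.04 in hairpin 1, −1.79 in hairpin 2, −1.08 in Apc and −0.65 in Pik3ca. The tumour-derived samples were 2.14-fold, 2.54-fold, 4.15-fold and 5.59-fold above the control. Each step between control, shCdh1 (−1.91 ± 0.18, SD, n = 2), Apc and Pik3ca was wider than the gap between the hairpins (0.25). That gap was below the median gap of 0.31 over all genes, and every group but shCdh1 was a single sample.

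Cyp26b1, the hydroxylase that clears retinoic acid, was at −1.62 in the control, −1.35 in hairpin 1, −0.83 in hairpin 2, 0.12 in Apc and 1.59 in Pik3ca. The samples stood in the same order as for Aldh1a3, with differences of 1.20-fold, 1.72-fold, 3.34-fold and 9.22-fold above the control. The step from the control to hairpin 1 was smaller than the gap between the hairpins (0.52), while the steps to Apc and then to Pik3ca were larger. Over the 4 tumour-derived samples the mean difference was 1.50, without Pik3ca 0.93, and on the slide that holds the control, shCdh1 alone, 0.53. Cyp26a1 and Cyp26c1, the other members of this family, were not well above background on any array. Crabp1, the other cellular retinoic acid carrier, was well above background in Apc (−5.65) and Pik3ca (−5.47) only, with a control signal of −7.93 (limma adjusted p = 0.713).

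Rarb, the receptor gene with the repeat printed above, was at −0.31 in the control, 0.04 in hairpin 1, 0.43 in hairpin 2, −0.01 in Apc and −0.41 in Pik3ca. Hairpin 2 was 1.66-fold and hairpin 1 1.27-fold above the control, Apc 1.23-fold above it and Pik3ca 1.07-fold below it. No step between neighbouring samples was wider than the gap between the hairpins (0.39). A Rarb probe for a second transcript accession gave differences of 0.20, 0.78, 0.20 and −0.40 in the same order of samples. The remaining probe was well above background in the control and hairpin 2 only. With the 3 probes averaged, the mean difference of the tumour-derived samples was −0.06 in place of 0.32, and without hairpin 2 it was 0.18.

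Set side by side, 4 of the 8 genes (Aldh1a2, Aldh1a3, Rdh10 and Cyp26b1) were above the control in all 4 tumour-derived samples, as were 30.2% of all genes tested, and 1 (Aldh1a1) was below it in all 4, as were 24.4%. Without Pik3ca these counts were 5 and 1, against 33.3% and 27.1% of all genes, Rarb being the added one. At least 2-fold higher than the control were 1 gene in hairpin 1 (background 8.69%), 3 in hairpin 2 (11.0%), 4 in Apc (11.3%) and 3 in Pik3ca (12.1%). At least 2-fold lower was Aldh1a1 in hairpin 1 (8.64%), in hairpin 2 (8.34%) and in Pik3ca (10.0%), and no gene in Apc (6.49%). The median of tumour mean minus control was 0.59 over the 8 genes and 0.06 over all genes, and without Pik3ca the first was 0.69. Without Pik3ca, the mean difference from the control was −1.42 for Aldh1a1, 2.98 for Aldh1a2, 1.50 for Aldh1a3, 1.09 for Rdh10, 0.46 for Rarb, −0.28 for Stra6 and −0.02 for Dhrs3. On the control's own slide, where the hairpins alone could be compared with it, the values were −1.65, 3.09, 1.22, 0.84, 0.54, −0.03 and −0.04 in the same order of genes, so no gene changed direction. Aldh1a3 was at least 2-fold above the control in all 4 samples, as were 3.16% of all genes, and none of the 8 was at least 2-fold below it in all 4 (2.77%). Because the genes were listed with these differences known, nothing is read from the counts.

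**Figure D3:**
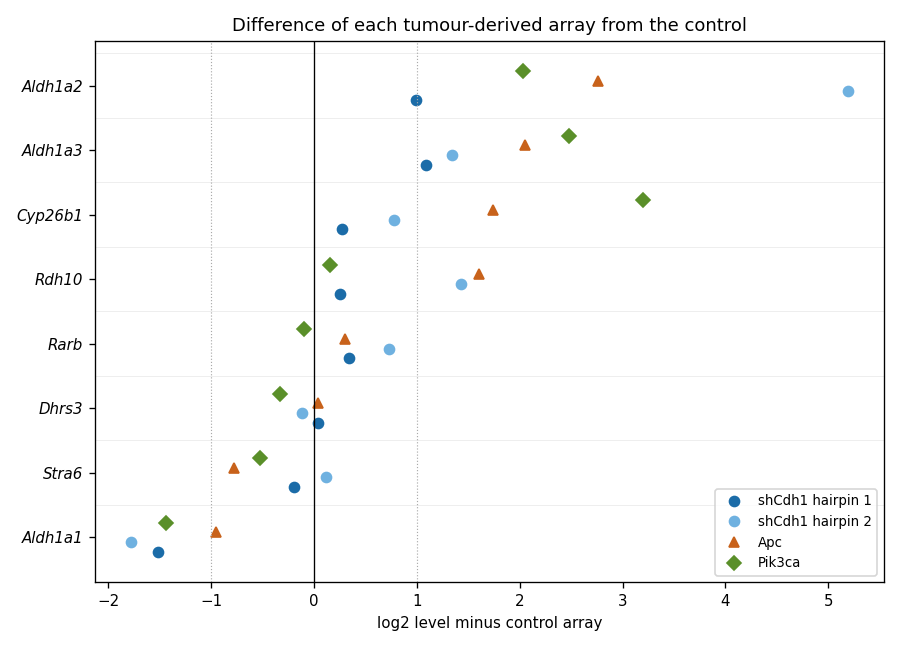
Log2 difference of each tumour-derived array from the control array for the 8 genes (dotted lines mark 2-fold), 1 symbol per array. Aldh1a2 reaches 5.19 in hairpin 2, Cyp26b1 3.20 in Pik3ca, and Aldh1a1 is the one gene with 4 symbols left of 0.

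Between tumour genotypes the shCdh1 pair was compared with the Apc and Pik3ca samples. Aldh1a1, Aldh1a3 and Cyp26b1 were lower in both hairpins than in either other tumour-derived sample, as were 13.1% of all genes. The shCdh1 mean was below the mean of the other pair by 1.37-fold for Aldh1a1, 2.07-fold for Aldh1a3 and 3.85-fold for Cyp26b1. Rarb and Stra6 were higher in both hairpins than in either other sample, by 1.35-fold and 1.54-fold on the means, as were 20.2% of all genes. Slide and genotype cannot be told apart here, since both hairpins were on 1 slide and Apc and Pik3ca on the other. For Aldh1a2 and Rdh10 the hairpins overlapped the other samples, and the Apc to Pik3ca gap for Rdh10 was 1.44 log2 units.

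3 of the 8 genes ranged over at least 2 log2 units across the 5 arrays (16.7% of all genes did), and the genes with the closest profiles were sought for these among the 14580 others that were well above background on every array. Likeness was the Euclidean distance between log2 profiles after each gene's own mean was subtracted, a description over 5 arrays only. Closest to Aldh1a2 were Pamr1 (0.72), the ceruloplasmin gene Cp (1.22) and the adhesion molecule gene Vcam1 (1.23), each also highest in hairpin 2. Closest to Aldh1a3 were the kinase gene Hunk (0.16), Rbpms2 (0.33) and the lysyl oxidase gene Loxl2 (0.36). Closest to Cyp26b1 were the adaptor gene Grb10 (0.48), Cited1 (0.57) and Tmem213 (0.60). Hunk stood at 0.82 in the control, 1.76 in hairpin 1, 1.99 in hairpin 2, 2.85 in Apc and 3.16 in Pik3ca, the same order as Aldh1a3.

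The wider pathway was described with a list of 48 other retinoid genes, 40 of which were tested. In the comparison of the 4 tumour-derived samples with the control 0 of the 40 passed in limma after Benjamini-Hochberg adjustment over all genes, against 21 of 17583 genes (0.119%, made up of 0.0227% higher and 0.0967% lower). That count of all genes was 0 with slide as a block, and 0 without hairpin 1, hairpin 2 or Pik3ca (1821, 2218, 2032 and 1852 genes with an unadjusted p below 0.05 in limma). 9 of the 40 had an unadjusted p below 0.05, 3 higher and 6 lower, against 13.3% of all genes. In the comparisons of shCdh1 with the control and with the other tumours 0 of 40 and of all genes passed in limma (6 and 1 of the 40 with an unadjusted p below 0.05, against 9.74% and 6.03% of all genes), in a fit with 1 residual degree of freedom. When 100 genes were changed by 4 log2 units in simulated data, the comparison of shCdh1 with the control called 0 of them. The comparison with the other tumours called 0 of 100 at 2 log2 units and 78 of 100 at 4. With the 4 tumour-derived samples against the control, 66 of 100 were called at 2 log2 units and 89 of 100 at 4. The simulated spread was taken from the hairpin pair and holds no difference between lesions. A count of 0 in any of these comparisons therefore cannot show that no gene differed. The median difference of tumour mean from control was −0.21, against 0.06 over all genes, and −0.17 without Pik3ca. All 4 tumour-derived samples lay below the control for 15 of the 40 and above it for 8, against 24.4% and 30.2% of all genes.

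Among the binding proteins, Rbp4, the plasma retinol carrier, was at 3.45 in the control, 4.06 in hairpin 1, 5.50 in hairpin 2, 3.49 in Apc and 4.24 in Pik3ca (adjusted p = 0.668). Ttr, which encodes transthyretin, the partner of that carrier in blood, was at −0.94 in the control, −0.76 in hairpin 1 and −2.50, −2.54 and −3.23 in hairpin 2, Apc and Pik3ca (adjusted p = 0.593). Of the 7 tested genes of retinol binding and uptake 4 were above the control in all 4 samples and 0 below it in all 4, beside 30.2% and 24.4% of all genes.

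Among 15 tested alcohol and short-chain dehydrogenases and related reductases, 9 were below the control in all 4 tumour-derived samples and 1, Rdh11, above it in all 4, with a median difference of −0.41. Over all genes these shares were 24.4% and 30.2% and the median 0.06, and the classes were drawn up after the values were known. Adh7, the stomach form of alcohol dehydrogenase with high activity on retinol, was at 2.04 in the control, 0.37 in hairpin 1, 0.10 in hairpin 2, 0.16 in Apc and −0.21 in Pik3ca. These 4 levels lay within 0.58 log2 units of each other and the mean difference was −1.94 ± 0.29 (SE, lower in 4 of 4, limma adjusted p = 0.167). Adh1, the class I alcohol dehydrogenase, stood at 2.64 in the control, against 2.09, 0.90, 1.79 and 1.22 in hairpin 1, hairpin 2, Apc and Pik3ca (−1.14 ± 0.51, SE, adjusted p = 0.421). Rdh11, a retinal reductase, was at 2.81 in the control, 3.50 in hairpin 1, 3.38 in hairpin 2, 2.90 in Apc and 3.48 in Pik3ca (adjusted p = 0.544). Aldh1a7, described above, had a mean difference of −1.75 ± 0.44 (SE, adjusted p = 0.266).

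Of 5 tested nuclear receptor genes 3 were below the control in all 4 tumour-derived samples and 1, Rarg, above it in all 4, where all genes gave 24.4% and 30.2%. Rxra, which encodes the receptors' partner RXRα, was at 3.57 in the control, 1.51 in hairpin 1, 1.83 in hairpin 2, 2.15 in Apc and 1.89 in Pik3ca, lower in 4 of 4 (−1.73 ± 0.30, SE, limma adjusted p = 0.214). A second Rxra probe, on the same accession, was lower in 4 of 4 by 0.73 to 0.95 log2 units. Rxrb had a level of 3.40 in the control, against 2.90 to 3.29 in the tumour-derived samples (adjusted p = 0.681). Rarg, the receptor typical of skin and other epithelia, was at 2.57 in the control, 3.12 in hairpin 1, 3.20 in hairpin 2, 2.71 in Apc and 3.67 in Pik3ca (adjusted p = 0.560). Rara was at 2.08 in the control, 1.39 in hairpin 1, 2.09 in hairpin 2, 2.24 in Apc and 2.07 in Pik3ca (adjusted p = 0.904). Nrip1, a corepressor of nuclear receptors, had a level of 0.03 in the control, against 0.64 to 0.97 in the 4 others (0.73 ± 0.23, SE, adjusted p = 0.317). None of these differences passed the test.

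**Figure D4:**
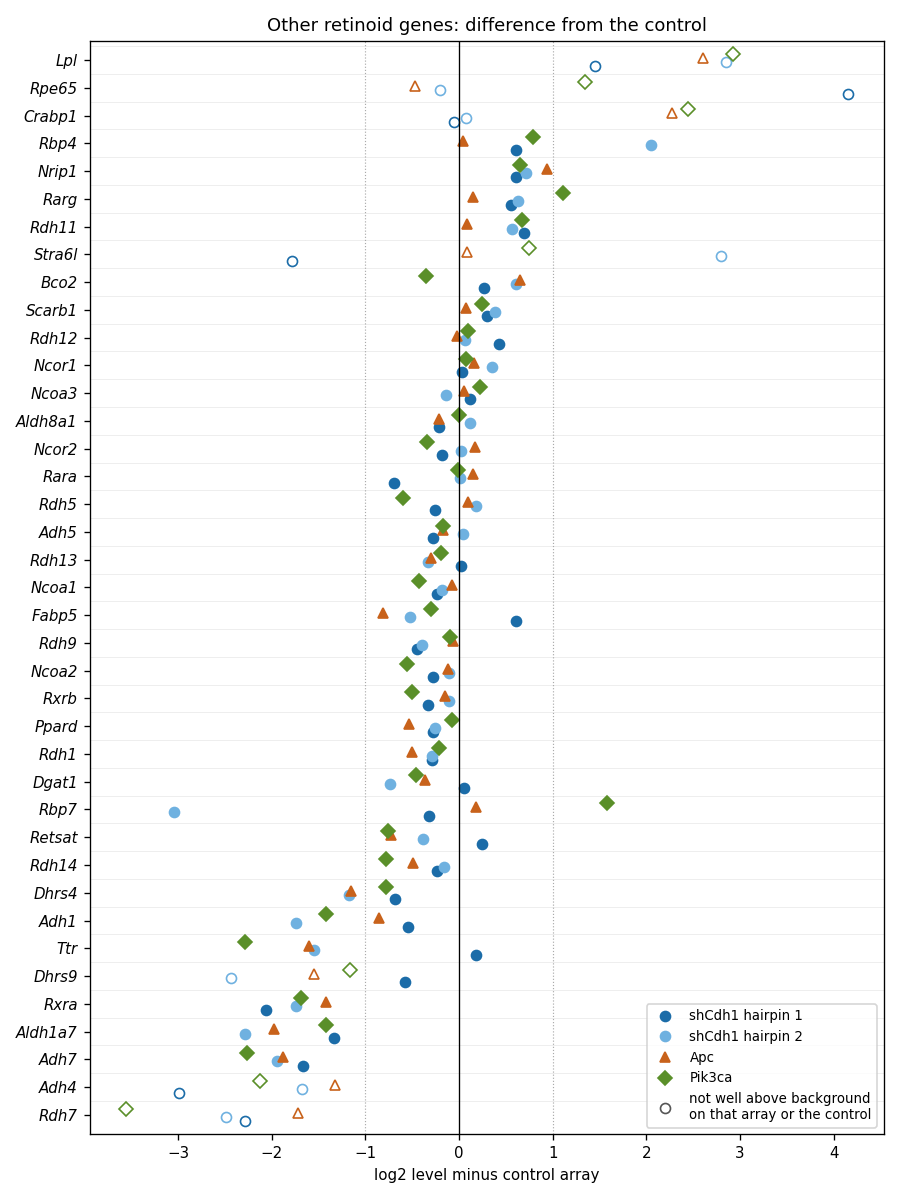
Log2 difference of each tumour-derived array from the control for 39 of the 40 other retinoid genes tested, ordered by their mean (dotted lines mark 2-fold, open symbols a spot not well above background on that array or in the control). Adh7, Aldh1a7 and Rxra lie left of 2-fold lower on all 4 arrays with filled symbols, as do Rdh7 and Adh4 with open ones.

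Genes known to respond to retinoic acid were described with a list of 36 genes outside the 9, of which 25 were tested and 3 are also among the other retinoid genes. In limma 0 of the 25 passed in any of the 3 comparisons (3, 4 and 3 with an unadjusted p below 0.05 for all tumours against the control, shCdh1 against the control and shCdh1 against the other tumours, where all genes gave 13.3%, 9.74% and 6.03%). The limit given above for a count of 0 applies here too. The median difference was −0.24 against 0.06 over all genes, and −0.10 without Pik3ca. All 4 tumour-derived samples were above the control for 5 of the 25 and below it for 7, near the shares of 30.2% and 24.4% over all genes. Among the higher mean differences of genes well above background on every array were those of the immediate early gene Egr1 (0.58 ± 1.09, SE, adjusted p = 0.852), the homeobox gene Meis2 (0.43 ± 0.36, 0.653) and the intestinal homeobox gene Cdx1 (0.23 ± 0.34, 0.807). The lowest was that of Isl1, a LIM homeobox factor, at −1.18 in the control, −3.64 in hairpin 1, −4.23 in hairpin 2, −2.29 in Apc and −4.60 in Pik3ca (−2.51 ± 0.90, SE, adjusted p = 0.355). Btg2, which is also a p53 target, differed by −0.64 ± 0.29 (SE, 0.427), Zfp703 by −0.63 ± 0.51 (0.636), transglutaminase Tgm2 by −0.63 ± 0.33 (0.484) and Meis1 by −0.58 ± 0.92 (0.821). Several of these values rest on 1 sample. Egr1 was at 0.13 without hairpin 2 and at 1.10 without Pik3ca. Meis1 was at −0.08 without hairpin 1, and at −0.15 with its probes averaged. Cdx1 was at 0.10 without hairpin 1 and 0.35 without Pik3ca, and Meis2 at 0.27 without Apc. Of the genes with the repeat spaced by 5 in their promoter window, Rarb ranged over 1.78-fold across the 5 arrays and Cyp26a1 was not well above background on any.

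**Figure D5:**
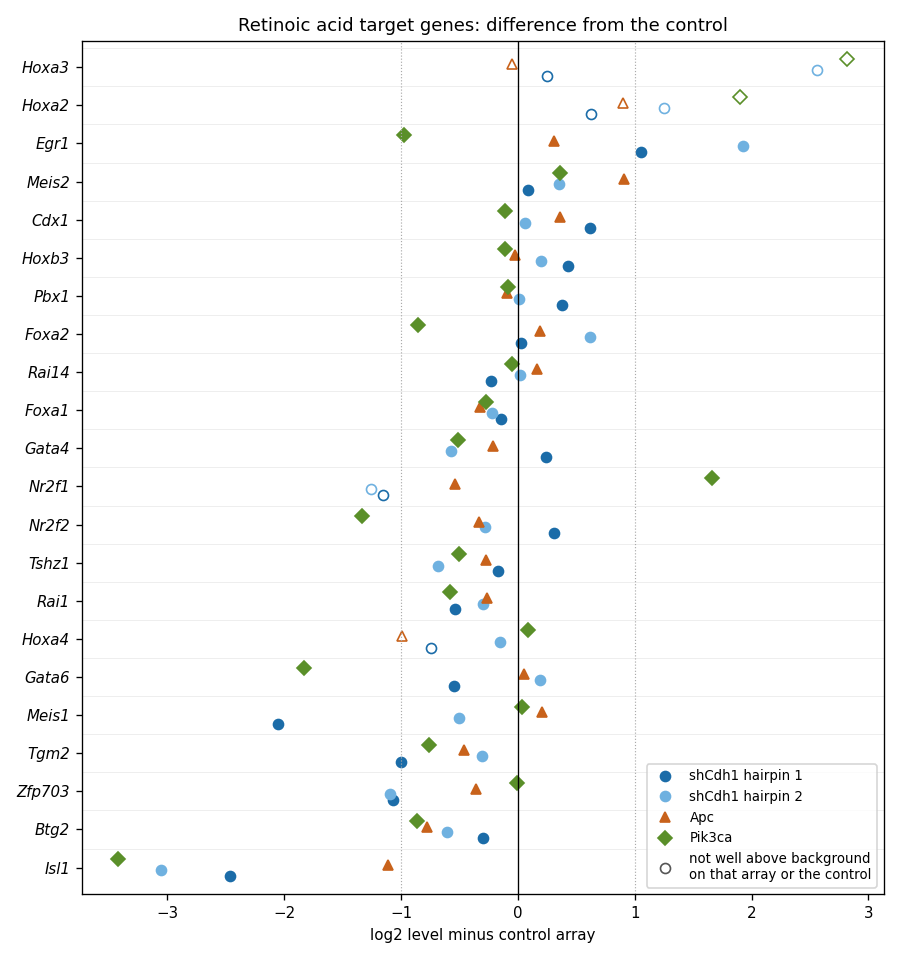
Log2 difference of each tumour-derived array from the control for 22 of the 25 retinoic acid target genes tested, ordered by their mean (dotted lines mark 2-fold, open symbols a spot not well above background on that array or in the control). Isl1 has the lowest mean, with 4 symbols left of 0.

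Markers of other cell types were read on the same arrays, because Aldh1a2 and Rdh10 are also active in connective tissue and mesothelium. All 13 gastric epithelial markers were well above background in the control and 12 or 13 in each tumour-derived sample, with a summed log2 level of 9.72 in the control and 9.11 to 9.63 in the others. Of these 13, 6 lay below the control in all 4 tumour-derived samples, as Aldh1a1 and Adh7 did, and 2 above it in all 4. Over all genes the shares were 24.4% and 30.2%. The 2 above it were Epcam (mean difference 0.94) and Sox2 (0.21). For the 6 below it the mean difference was −3.33 for Pgc (pepsinogen C), −1.52 for Gkn2, −1.51 for Tff1, −1.32 for Tff2, −1.20 for Cldn18 and −0.43 for Krt8. Of 10 fibroblast markers 3 were well above background in the control, 1 in hairpin 1, 4 in hairpin 2, 6 in Apc and 2 in Pik3ca, with a summed log2 level of −3.26 in the control and −3.05, −2.59, −1.76 and −2.78 in the others. Col3a1, Lum, Pdgfrb and Postn were not well above background on any array, and Dcn was so in Apc only. Among 5 mesothelial markers Wt1 was well above background in hairpin 2 only (−2.63), the sample with the highest Aldh1a2, whereas Upk3b was not well above background there. The 5 summed to 7.66 in the control and 7.21, 7.71, 7.23 and 6.94 in hairpin 1, hairpin 2, Apc and Pik3ca, a sum set by Msln. Of 10 squamous markers 7 to 9 were well above background on each array, with a summed level of 1.92 in the control, 2.56 in hairpin 1, 2.47 in hairpin 2, 2.48 in Apc and 2.95 in Pik3ca. Of these 10, 7 lay above the control in all 4 tumour-derived samples and 2, Krt5 (−1.59) and Krt15 (−2.03), below it in all 4. Beside these counts stand 30.2% and 24.4% of all genes. The 7 include Dsg3, which was not well above background on any array. They also include Krt13, which was not so in the control or hairpin 2. Krt15 was not well above background in either hairpin. Krt14, picked out after its values were seen, stood at −4.83, −4.07, −3.87, −2.24 and −0.54 in control, hairpin 1, hairpin 2, Apc and Pik3ca. This was the order seen for Aldh1a3 and Cyp26b1, and none of the other squamous markers had it in full. Krt6a and Krt13 differed from it only in the order of the hairpins, with the control lowest, then both hairpins, Apc and Pik3ca. Endothelial markers (3 or 4 of 7), leukocyte markers (4 or 5 of 8) and adipocyte markers (3 or 4 of 5) were well above background in like numbers on all 5 arrays, but single markers differed. The endothelial gene Emcn was at −2.54 in the control and not well above background in the other 4. Kdr went the other way, at −4.18, −4.87 and −5.18 in hairpin 2, Apc and Pik3ca and not well above background in the control or hairpin 1. Cdh5 and Tek were well above background in hairpin 1 only. Of the 7 endothelial markers 1 lay below the control in all 4 tumour-derived samples and 2 above it, beside 24.4% and 30.2% of all genes. The adipocyte gene Fabp4 had a mean difference of −2.44, and the adipocyte markers summed to 1.57 in the control and −0.01 to 1.32 in the others. The part of these markers in the differences above was not tested.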

How the data were processed

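Total RNA of 5 samples was hybridised to 1-colour Agilent arrays. Per the submitters' processing notes and the file headers, spots were read with Agilent Feature Extraction 11.0.1.1, and the deposited processed signal is an intensity that the software had background-subtracted and spatially detrended, not normalized between arrays. The value table deposited by the authors holds log2 values. Its differences from the control had a slope of 1 against the scanner values over 53335 probes, so direction and scale are settled, while the baseline per probe is unknown. Column medians were −0.057, 0.073, 0.031, −0.079 and 0.022 for control, hairpin 1, hairpin 2, Apc and Pik3ca.

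The log2 processed signal was reduced by each array's 75th percentile. Control spots and 78 to 114 outlier spots per array were left out, and 32 of 56605 probes were dropped. Probes were named by accession through a RefSeq table of GRCm38.p6 (34549 matched 1 symbol, 22024 did not), and the probe with the highest mean level stood for a gene. Testing covered the 17583 genes that had a probe well above background on 1 or more arrays, by limma 3.58.1 (lmFit and eBayes in R 4.3.3, two-sided, Benjamini-Hochberg, threshold 0.05). 3 comparisons were made: 4 tumours against the control (3 residual degrees of freedom, the lone control assumed to vary like them), and shCdh1 against the control and against the mean of Apc and Pik3ca (1 residual degree of freedom). The script was tested on simulated data. The number of arrays limits the precision.

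The members and gene lists were chosen with earlier results of these data known. Beside the 9 members, the text names from each list the 5 highest and 5 lowest mean differences of genes that were well above background on every array, any gene that passed, 4 receptors (Rara, Rarg, Rxra, Rxrb) and 4 close paralogs (Aldh1a7, Crabp1, Cyp26a1, Cyp26c1), and for wide-ranging members the 3 closest profiles. Some genes that this rule names are not reported here, though list counts and medians include them. Other genes named were chosen after their values were seen. Alternatives covered background correction, quantile normalization, the authors' table, probe averaging, filters, a floor for dim signals, slide and each sample left out.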

Additional observations from a re-analysis of the deposited data

Results flagged for a closer look

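Among the genes named in the text for their place in the retinoid or target lists and well above background on all 5 arrays, 7 comparisons had both hairpins on one side of the control and Apc or Pik3ca, 1 sample each, on the other. None of these differences was tested, and no explanation was weighed. Rbp7 was included though it was chosen after its values were seen, and list genes that the text does not name were left out. The share of all genes with such a split was not determined, so nothing is read from the count.

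Rarb was above the control by 0.34 and 0.73 log2 units in hairpins 1 and 2 and stood at −0.10 from it in Pik3ca, a difference of 0.64 between the shCdh1 mean and Pik3ca. Cdx1 differed from the control by 0.62 and 0.06 in the hairpins and −0.11 in Pik3ca, which puts shCdh1 0.45 above. For Egr1 the hairpins stood at 1.05 and 1.93 and Pik3ca at −0.97, a difference of 2.46. Meis1 was at −2.05 and −0.50 in the hairpins, 0.21 in Apc and 0.04 in Pik3ca relative to the control, so the shCdh1 mean differed by −1.48 from Apc and by −1.31 from Pik3ca. Rbp7 was at −0.32 and −3.04 in the hairpins, 0.18 in Apc and 1.58 in Pik3ca relative to the control, which gives −1.86 against Apc and −3.26 against Pik3ca.

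Among 53 cell type markers and label check genes, 7 had 1 tumour-derived sample far from the other 3. Its gap to the nearest sample, divided by the range of the 4, was above Dixon's critical value, which chance passes in about 1 of 20 groups. Pik3ca stood apart for Xist (0.98), Eif2s3y (0.99), Ddx3y (0.94), Krt6a (0.85), Krt5 (0.84) and Ptprc (0.84), and Apc for Dcn (0.94). No gene of the retinoid or target lists named in the text passed that value.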

How the results depend on the processing

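For the 8 genes, 70 of 80 values of tumour mean minus control moved by less than the SD of the hairpin pair, and 1 changed sign, Rarb with its probes averaged. That yardstick is loose where the hairpins lie far apart. For Aldh1a2 the SD (2.97) exceeded the difference itself (2.74), so its fall to 1.53 with normexp counted as less than the SD. For Rdh10 the SD was 0.83 and the difference 0.86. None of the 22 other named genes tested passed the threshold under any alternative (lowest adjusted p = 0.0513), and Rara was the one to change sign (0.11 with probes averaged, 0.05 without hairpin 1). The count of all genes passing between tumours and control, 21, was 50 with normexp, 49 with dim signals at a floor, 7 when a gene had to be well above background on every array and 0 with slide as a block (1821 with an unadjusted p below 0.05 in limma). With 1 sample left out it was 0 to 19, being 0 without hairpin 1, hairpin 2 or Pik3ca (2218, 2032 and 1852 unadjusted). The median of the other retinoid genes was −0.15 with probes averaged and −0.14 on the control's slide. That of the retinoic acid targets was −0.05 with normexp, −0.10 with probes averaged, −0.12 with the floor, −0.11 on the control's slide and −0.21 to −0.06 with 1 sample left out. Under normexp, genes at least 2-fold from the control numbered 403 higher and 741 lower in hairpin 1, 730 and 879 in hairpin 2, 802 and 670 in Apc and 981 and 990 in Pik3ca, against 1528 and 1519, 1940 and 1467, 1990 and 1141, and 2119 and 1761. The normexp setting adds an offset of 50 to every signal, which narrows the fold differences of dim spots. How much of the change came from this offset was not tested.

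Leaving out a hairpin leaves the group fit without residual degrees of freedom, so those fits were not run. No paired analysis was possible because the hairpin numbers are shared with no other group. Signals near background limit what Crabp1, Cyp26a1 and Cyp26c1 show, and the folds of Aldh1a2 against its dim control level.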

Other observations

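Some genes of the lists fell outside the naming rule because they were not well above background on every array, and were picked out after their values were seen. Lpl, the lipoprotein lipase that also frees retinol from circulating retinyl esters, was well above background in all 4 tumour-derived samples (−4.77, −3.38, −3.62 and −3.30) and not in the control, at least 4.91-fold higher (adjusted p = 0.269). Rdh7, a retinol dehydrogenase, and Adh4, a class II alcohol dehydrogenase, were well above background in the control alone, where they stood at −4.58 and −4.95. They were at least 2.66-fold and 2.06-fold lower in the tumour-derived samples (adjusted p = 0.287 and 0.324). "At least" compares the brighter group's mean with a floor for the dim arrays, the lowest signal that any probe well above background had there, or the dim probe's signal where that was higher.

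Rbp7, a retinol-binding protein of fat and endothelium, was at −1.17 in the control, −1.49 in hairpin 1, −4.21 in hairpin 2, −0.99 in Apc and 0.42 in Pik3ca. It too was chosen after its values were seen.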
